A study of Mus musculus with 6 samples.

Results

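Atf4 and 8 enzymes of serine, glycine, one-carbon and asparagine synthesis (Phgdh, Psat1, Psph, Shmt1, Shmt2, Mthfd2, Mthfd1l and Asns) were followed in mouse pre-iPSCs, which are partially reprogrammed cells. They are defined by gene symbol, as a pathway, with no threshold on their measured values. They were, however, chosen with earlier results of these data known, so their counts beside all genes are descriptions only. The 9 genes are 9 of the 20325 in the files, and all 9 passed the filter on low counts that left 11048 genes to test.

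RNA sequencing covered the 2 lines pre2-2 and pre3 under 3 treatments: no transfection, a control siRNA, and an siRNA (siTet1) that targets Tet1, a dioxygenase that oxidises methylated cytosine in DNA. Each of the 6 combinations gave 1 library. All groups shared the OG2 transgene (a GFP reporter under the Pou5f1 promoter), passage 10, a mixed strain labelled 1/2 129SVJ, 3/8 C57B6 and 1/8 CBA, LIF in the medium, and vitamin C at 50 µg/ml. The labels differ on the schedule. In the series text vitamin C was added 16 h after transfection and RNA was taken after a further 32 h. In the sample descriptions RNA was taken 48 h after transfection, of which 36 h were with vitamin C. The sample labels name the cells as fibroblasts of OG2 embryos and in places call the agent Tet siRNA. The cells were taken here as pre-iPSCs and the agent as an siRNA against Tet1. Each line is a single line, and the labels do not say whether its libraries came from separately grown cultures. The p-values therefore concern only these libraries and do not measure the spread between cultures. With 1 library per combination, their spread is the departure from line and treatment effects that add up. That spread is estimated in part from all genes together.

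Serine is made from a glycolytic intermediate in sequential steps by Phgdh, Psat1 and Psph. Shmt1 in the cytosol and Shmt2 in mitochondria turn serine into glycine and pass its carbon to folate, and mitochondrial Mthfd2 and Mthfd1l carry that carbon on towards formate for nucleotide synthesis. Atf4 is the transcription factor of the amino acid and integrated stress response. It is controlled largely at translation, which RNA counts do not measure. Asns, Psat1, Phgdh, Shmt2 and Mthfd2 are among its known targets. That list is not complete, and the enzymes were not sorted here into targets and non-targets.

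The proximal promoters of Phgdh, Psat1 and Asns are shown as examples of windows that hold a motif searched. They are from genes that were called lower in siTet1 than in untransfected cells. Mthfd2 is another such gene and is given by its counts alone. Shmt2 was called lower as well, but its window holds none of the motifs searched. The sequences are from RefSeq on GRCm38.p6, a later build than the mm9 used for the counts. Each is the 250 bases before the annotated start, written 5′ to 3′ in the direction of the gene, which is the minus strand for all of these genes. Capitals mark CCAAT in Phgdh and Psat1 and the C/EBP-ATF composite element TGATGNAA in Asns. The windows are chr3:98339970-98340219 for Phgdh, chr19:15925060-15925309 for Psat1 (the first of its 2 RefSeq windows) and chr6:7693210-7693459 for Asns.
Phgdh: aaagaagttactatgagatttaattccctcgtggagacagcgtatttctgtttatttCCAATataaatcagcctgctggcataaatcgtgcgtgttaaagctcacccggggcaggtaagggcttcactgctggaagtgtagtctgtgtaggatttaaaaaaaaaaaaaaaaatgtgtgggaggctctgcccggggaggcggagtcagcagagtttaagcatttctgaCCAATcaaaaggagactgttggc
Psat1: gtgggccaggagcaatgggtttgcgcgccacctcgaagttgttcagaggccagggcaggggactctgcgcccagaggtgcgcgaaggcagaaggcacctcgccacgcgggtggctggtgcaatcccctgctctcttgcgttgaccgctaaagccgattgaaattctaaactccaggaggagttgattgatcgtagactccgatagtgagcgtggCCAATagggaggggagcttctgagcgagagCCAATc
Asns: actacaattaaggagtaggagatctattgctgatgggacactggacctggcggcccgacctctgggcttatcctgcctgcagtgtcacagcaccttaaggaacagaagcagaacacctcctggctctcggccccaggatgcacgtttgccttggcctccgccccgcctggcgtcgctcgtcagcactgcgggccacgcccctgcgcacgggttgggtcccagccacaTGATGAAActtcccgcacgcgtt

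RefSeq gave 10 promoter windows for the 9 genes, of which the first was used for Psat1 (its other window holds none of the motifs). Over 300 bases, 250 before to 50 after the start, both strands were searched. TGATGNAA, known as an ATF4 binding element of Asns, was found in 1 of the 9 genes, Asns, with its first base at -23. It was in 3.97% of the 32851 RefSeq windows of that length. The E-box CACGTG was in 0 of the 9 and in 7.15% of all windows. CCAAT, a motif chosen after the sequences were seen, was in 6 of the 9 (Atf4, Phgdh, Psat1, Psph, Shmt1 and Mthfd2) against 37.4% of all windows. At least 2 copies were in 5 of the 9 against 11.7%, and at least 3 in Psat1 and Mthfd2 against 3.37%. The CCAAT copies of Psat1 began at -36, -6 and +24, the last beyond the printed stretch. Since CCAAT was picked from these windows, its counts beside all windows are not a test. All windows were not limited to the genes tested here or to 1 window per gene. A motif match is a description of letters, and no binding was measured here.

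Tet1 was at 250, 246 and 154 CPM (counts scaled to a common library size, with a correction for library composition) in untransfected, control siRNA and siTet1 cells of pre2-2, and at 205, 251 and 159 in pre3. The fitted log2 change from control siRNA to siTet1 was -0.67 (adjusted p = 0.0043), so Tet1 RNA was lowered and not removed. That call was lost with DESeq2, without the pre2-2 siTet1 library or without the control siRNA library of pre3. Unless another tool is named, adjusted p comes from the two-sided quasi-likelihood test of edgeR, adjusted after Benjamini and Hochberg across the 11048 genes, and a gene was called when it was under 0.05. Libraries held 1868640 to 2582803 expected counts. The pluripotency genes Pou5f1 and Sox2 were at 1042 to 6619 and 382 to 496 CPM, whereas Nanog, Esrrb and Zfp42 were at 0 to 3.54, 0 to 1.41 and 0.506 to 5.85 CPM, where 3 counts equal 1.16 to 1.61 CPM. Fibroblast markers were also present, with Col1a1 at 367 to 2054 CPM. A list of 5 haematopoietic markers summed to 5.33 to 14.9 CPM, with Cd3e at 0 in all libraries, and 5 endothelial markers summed to 26.6 to 104 CPM.

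All 9 genes were well expressed. Each library gave them 60 to 903 expected counts, for which counting error alone is 12.9% at the lowest and 3.33% at the highest. On the TPM scale, which corrects for transcript length and so allows levels of different genes to be compared, Atf4 (mean of the 6 libraries 318), Phgdh (316), Shmt2 (276) and Psat1 (257) were the most abundant. Their ranges overlapped, so the order among these genes was not separated by the spread between libraries. Asns followed at 148 and Mthfd2 at 92.5, then Shmt1 (69), Mthfd1l (63.4) and Psph (50.7). The last enzyme of the serine pathway, Psph, was thus its least abundant by TPM. The mitochondrial Shmt2 exceeded the cytosolic Shmt1 by 3.51 to 4.96 times in TPM in every library, and Mthfd2 exceeded its paralog Mthfd2l by 5.89 to 13.3 times.

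Psat1, which transfers an amino group in the second step of serine synthesis, was the member with the most negative fitted change after Tet1 siRNA. It was at 304, 225 and 145 CPM in untransfected, control siRNA and siTet1 cells of pre2-2, and at 397, 349 and 216 in pre3. The siTet1 library was the lowest of each line, and the siTet1 libraries lay below all 4 other libraries. Against control siRNA, Psat1 fell by 0.67 on the log2 scale (SE 0.12, 95% interval -0.92 to -0.41, fold 0.63, adjusted p = 0.00256), with -0.63 within pre2-2 and -0.69 within pre3. Against untransfected cells it fell by 0.97 (SE 0.12, fold 0.509, adjusted p = 1.43e-05). Those comparisons share the siTet1 libraries. Only 2.38% of tested genes had a lower fold against control siRNA, and 0.806% against untransfected cells. The call against control siRNA was lost when the siTet1 library of pre2-2 was left out (-0.62, adjusted p = 0.154) or without the control siRNA library of pre3 (-0.60, adjusted p = 0.244). Its call against untransfected cells held when any 1 library was left out, with changes of -1.10 to -0.86.

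**Figure D1:**
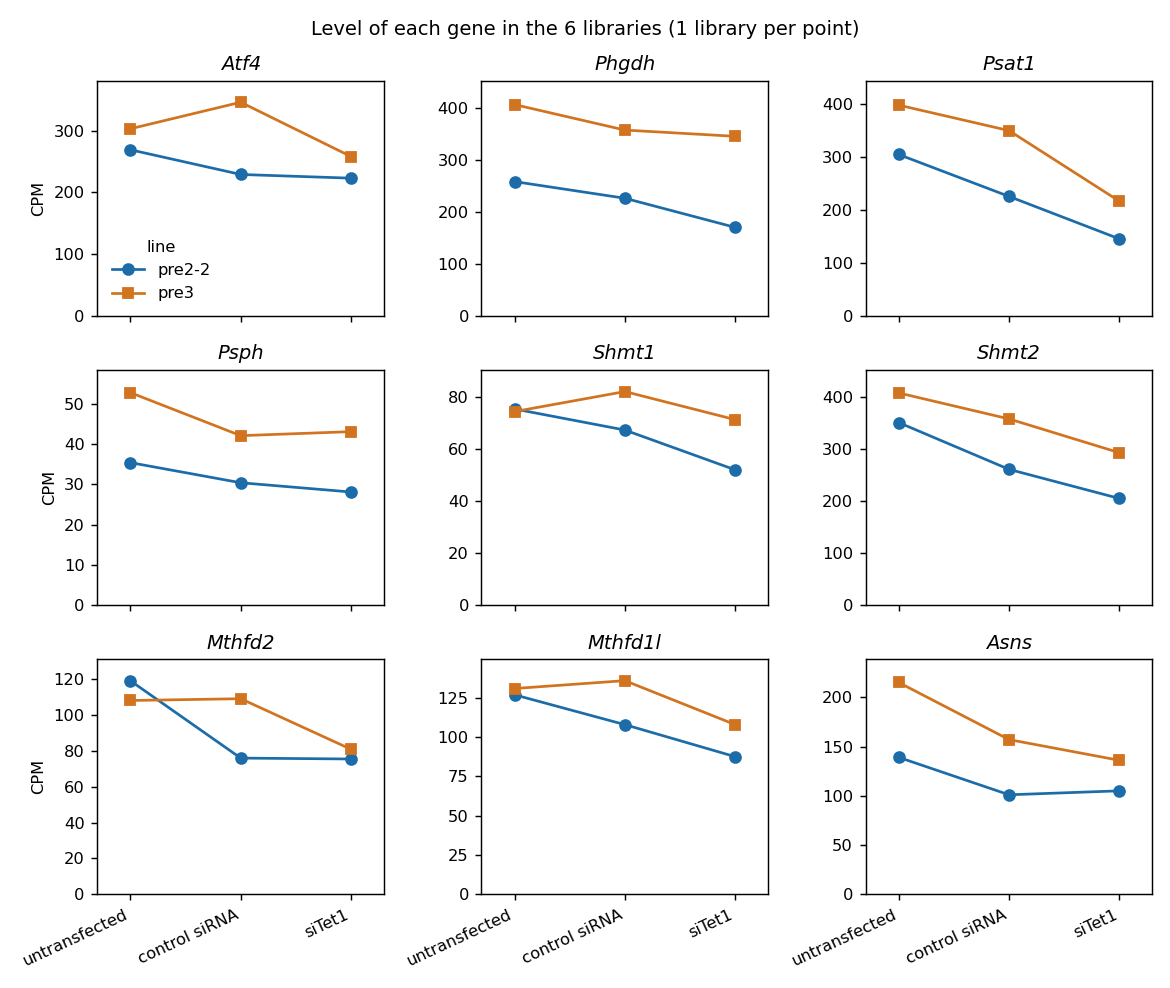
Level of each of the 9 genes in CPM (vertical axis from 0, its range set per gene) in untransfected, control siRNA and siTet1 cells; each point is 1 library, and blue circles joined by lines are pre2-2, orange squares pre3. Psat1, Phgdh and Shmt2 step down from untransfected to control siRNA to siTet1 in both lines, while Psph and Asns have no lowest siTet1 library in 1 of the lines.

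Phgdh, the first and committing enzyme of the serine pathway, was at 258, 226 and 170 CPM in pre2-2 and at 406, 357 and 345 in pre3, in the same order of treatments. The lines did not overlap, and the siTet1 library was the lowest of each. Phgdh fell against untransfected cells by 0.41 (SE 0.12, fold 0.753, adjusted p = 0.0409), although the treatment ranges overlapped across lines. In the fit to only the 4 libraries of those groups, with the line as the replicate block, Phgdh was not called (-0.41, adjusted p = 0.0783). Its change against control siRNA was -0.22 (SE 0.12, 95% interval -0.47 to 0.03, adjusted p = 0.538), with -0.41 in pre2-2 and -0.05 in pre3.

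Psph, the phosphatase that releases serine, was at 35.4, 30.4 and 28.1 CPM in pre2-2 and at 52.8, 42.1 and 43.1 in pre3. Its change against control siRNA was -0.03 (95% interval -0.45 to 0.38), and it was not called in any treatment comparison. The TPM ratio of Psat1 to Psph, both of the same pathway, was 6.2, 5.34 and 3.71 in pre2-2 and 5.42, 5.98 and 3.62 in pre3, lowest in the siTet1 library of each line. The ratio of Psat1 to Phgdh was likewise lowest there, at 0.75 in pre2-2 and 0.55 in pre3, against 0.859 to 1.03 in the other 4 libraries. No test was run of the difference between these genes, and their intervals against control siRNA overlapped. Against untransfected cells the 95% interval of Psat1 (-1.22 to -0.73) lay below those of Phgdh (-0.66 to -0.16) and Psph (-0.71 to 0.09).

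Shmt2, the mitochondrial enzyme that makes glycine, was at 351, 261 and 205 CPM in pre2-2 and at 408, 358 and 293 in pre3. It fell in siTet1 against untransfected cells by 0.63 (SE 0.12, fold 0.648, adjusted p = 0.00137). Against control siRNA its change was -0.32 (SE 0.12, 95% interval -0.56 to -0.07, adjusted p = 0.259), close to the same size in both lines (-0.35 and -0.29). Shmt1, its cytosolic counterpart, was at 75.4, 67.3 and 52 CPM in pre2-2 and at 74.4, 82.1 and 71.3 in pre3. Its siTet1 libraries overlapped with those of control siRNA and lay below both untransfected libraries. Shmt1 was not called, with -0.28 against control siRNA (adjusted p = 0.572) and -0.30 against untransfected cells (adjusted p = 0.319).

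Mthfd2, a mitochondrial folate enzyme that is high in many dividing cells, was at 119, 75.9 and 75.4 CPM in pre2-2 and at 108, 109 and 80.8 in pre3. The lines differed in where the lower values began. In pre2-2 both transfected libraries were low, whereas in pre3 the siTet1 library alone was. Mthfd2 fell in siTet1 against untransfected cells by 0.55 (SE 0.16, fold 0.683, adjusted p = 0.0331), and its change against control siRNA was -0.23 (adjusted p = 0.664).

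Mthfd1l, which releases formate in mitochondria, was at 127, 108 and 87.6 CPM in pre2-2 and at 131, 136 and 108 in pre3. Its siTet1 libraries lay at or below the lowest control library to the digits shown, and the difference missed the threshold against control siRNA (-0.32, SE 0.14, adjusted p = 0.39) and against untransfected cells (-0.42, SE 0.14, adjusted p = 0.0773).

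Asns, which makes asparagine from aspartate and glutamine, was at 139, 101 and 105 CPM in pre2-2 and at 215, 157 and 136 in pre3. Both transfected libraries were below the untransfected one in each line. Asns fell in siTet1 against untransfected cells by 0.54 (SE 0.13, fold 0.689, adjusted p = 0.0131). Between control siRNA and untransfected cells, the comparison that holds no Tet1 siRNA, its change was -0.46 (SE 0.13, adjusted p = 0.0972), with -0.46 in pre2-2 and -0.45 in pre3. Between siTet1 and control siRNA it was -0.08 (95% interval -0.36 to 0.20), with opposite signs in the lines (0.06 and -0.21).

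Atf4 RNA itself was at 269, 229 and 223 CPM in pre2-2 and at 303, 346 and 258 in pre3. The siTet1 library was the lowest of each line, but in pre2-2 it was close to the control siRNA library. The fitted change was -0.24 against control siRNA (SE 0.13, 95% interval -0.50 to 0.02, adjusted p = 0.513) and -0.25 against untransfected cells (SE 0.12, 95% interval -0.51 to 0.00, adjusted p = 0.267). The siTet1 libraries lay below both untransfected libraries and overlapped with control siRNA. Atf4 was not called in a treatment comparison with all 6 libraries. Without the untransfected library of pre3 it was called against untransfected cells (-0.39, adjusted p = 0.00767), and with any 1 library left out its change ranged from -0.39 to -0.13 there and from -0.44 to -0.04 against control siRNA. Neither its translation nor its protein was measured.

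**Figure D2:**
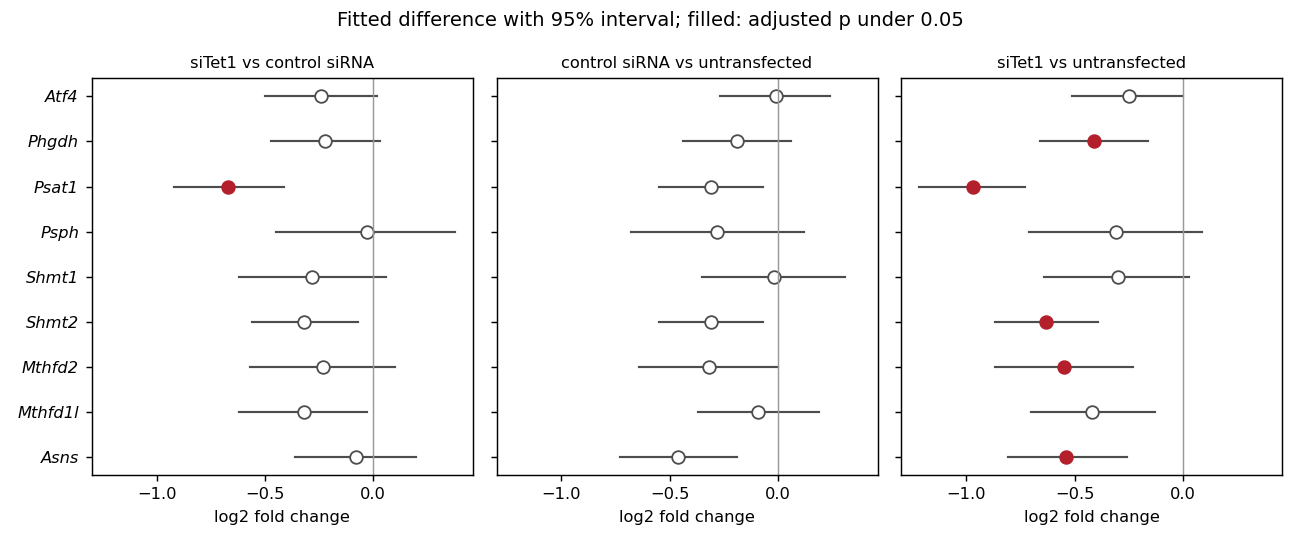
Fitted log2 fold change of each gene (horizontal axis) with its 95% interval in siTet1 against control siRNA, control siRNA against untransfected, and siTet1 against untransfected, from the fit to all 6 libraries; filled red points have an adjusted p under 0.05. Psat1 is filled in the outer panels, Phgdh, Shmt2, Mthfd2 and Asns only in the last, and all fitted values in the 3 panels are below 0.

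Counted over the 9 genes, 1 was called lower in siTet1 than in control siRNA (Psat1) and 0 higher, where 0.434% of all tested genes were called lower and 1.15% higher. Between control siRNA and untransfected cells 0 of the 9 were called by edgeR, DESeq2 or limma-voom, against 0.0996% of all genes lower and 1.38% higher by edgeR. At an unadjusted p under 0.05 in edgeR, 3 of the 9 (Psat1, Shmt2 and Asns) were lower there, and 1016 of the 11048 genes tested passed in either direction. Between siTet1 and untransfected cells 5 of the 9 were called lower (Phgdh, Psat1, Shmt2, Mthfd2 and Asns) and 0 higher, against 1.63% and 4.92% of all genes.

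All 9 fitted values were negative in each of these comparisons, as were 49.3%, 49.4% and 48.5% of all genes. Their median log2 change was -0.24, -0.28 and -0.42, beside 0.00, 0.00 and 0.01 over all genes. The comparisons share libraries, so these counts are not independent of each other. The 9 genes were also chosen with earlier results of these data known, so their counts beside all genes are not tests. Phgdh, Psat1 and Shmt2 (3 of the 9, 33.3%) were highest in untransfected, intermediate in control siRNA and lowest in siTet1 cells of both lines, an order held by 682 of the tested genes (6.17%). The siTet1 library was the lowest of both lines for 7 of the 9, all but Psph and Asns, and for 16.7% of all genes.

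Part of the fitted fall against untransfected cells thus lay between the untransfected and control siRNA libraries, a step in which 0 of the 9 were called. For Asns the changes over the steps from untransfected to control siRNA and from control siRNA to siTet1 were -0.46 and -0.08. They were -0.31 and -0.32 for Shmt2, -0.19 and -0.22 for Phgdh, -0.31 and -0.67 for Psat1, and -0.32 and -0.23 for Mthfd2. For Mthfd2 the lines differed in which step held the fall. Of the 5 calls against untransfected cells, those of Phgdh, Mthfd2 and Asns were the least stable. DESeq2 called only Psat1 and Shmt2, at adjusted p of 0.444, 0.528 and 0.288 for Phgdh, Mthfd2 and Asns. Without the pre2-2 siTet1 library only Psat1 was called. That library's removal left Shmt2 at -0.54 (adjusted p = 0.141), Asns at -0.66 (adjusted p = 0.0643), Mthfd2 at -0.58 (adjusted p = 0.219) and Phgdh at -0.23 (adjusted p = 0.806). Without the siTet1 library of pre3, Asns (-0.41, adjusted p = 0.283) and Mthfd2 (-0.53, adjusted p = 0.142) were not called. Without the pre2-2 untransfected library, Mthfd2 (-0.30, adjusted p = 0.464) and Phgdh (-0.31, adjusted p = 0.1) were not, and Phgdh also lost its call without either control siRNA library (-0.42 and -0.43).

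Other RNAs moved with the same libraries. The summed level of 10 interferon-response genes was 223, 1012 and 334 CPM in untransfected, control siRNA and siTet1 cells of pre2-2. It was 78, 251 and 141 in pre3, again highest with control siRNA. All 9 tested genes of that list were called higher in control siRNA than in untransfected cells, beside 1.38% of all genes. All 9 were called lower in siTet1 than in control siRNA, beside 0.434%. In siTet1 against untransfected cells 6 of the 9 were called higher and 0 lower, beside 4.92% and 1.63%. The summed level of 10 fibroblast markers was 1599, 3867 and 3265 CPM in pre2-2 and 833, 1014 and 1140 in pre3, lowest in the untransfected library of each line. The part of either in the values of Atf4 and the 8 enzymes was not tested. In bulk RNA, fewer cells of a type and less RNA per cell cannot be told apart.

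The lines differed in most of these genes. In pre3, 6 of the 9 were called higher than in pre2-2 and 0 lower, where 14.4% of all genes were called higher and 15.8% lower. The median difference of the 9 was 0.39 on the log2 scale, beside 0.00 over all genes. Phgdh was 1.71 times as high in pre3 (log2 0.77, SE 0.10, adjusted p = 1.22e-06) and Psph 1.47 times (log2 0.56, SE 0.16, adjusted p = 0.00926). For these genes alone among the 9 every pre3 library lay above every pre2-2 library. The share of all tested genes whose lines separate in this way was not counted. The pre3 minus pre2-2 difference in Phgdh was 0.65 in untransfected, 0.66 in control siRNA and 1.02 in siTet1 cells.

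Asns (fold 1.46, adjusted p = 0.00037), Psat1 (fold 1.44, adjusted p = 0.000153), Shmt2 (fold 1.31, adjusted p = 0.0028) and Atf4 (fold 1.25, adjusted p = 0.0172) were also higher in pre3. Their ranges overlapped across treatments, although pre3 was the higher line within each treatment. For Atf4 the difference was 0.17 in untransfected, 0.59 in control siRNA and 0.21 in siTet1 cells. Shmt1 (log2 0.23, adjusted p = 0.205), Mthfd1l (0.22, adjusted p = 0.152) and Mthfd2 (0.14, adjusted p = 0.444) were not called. The calls of Phgdh, Psat1 and Asns held when any 1 library was left out. Without the control siRNA library of either line Atf4 was not called (0.19 and 0.21), nor was it with DESeq2 (adjusted p = 0.146). Psph was not called with DESeq2 (adjusted p = 0.178) or without the siTet1 library of either line (0.53), nor Shmt2 without a control siRNA or siTet1 library of either line (0.33 to 0.38).

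The lines also differed in their markers. The summed level of 12 pluripotency markers ranged over 2044 to 2596 CPM in the pre2-2 libraries and over 6908 to 7979 CPM in those of pre3, much of it Pou5f1. Of the 8 tested pluripotency markers 3 were called higher and 3 lower in pre3, with a median difference of 0.01, and 8 of the 9 tested fibroblast markers were called lower. All 9 tested interferon-response genes and all 3 tested endothelial markers were also called lower in pre3, with medians of -2.59 and -1.65. Of all genes 15.8% were called lower. The part of these lists in the line difference was not tested. Since each line is 1 line, a difference between them cannot be told apart from any other difference in how the lines were made or kept.

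**Figure D3:**
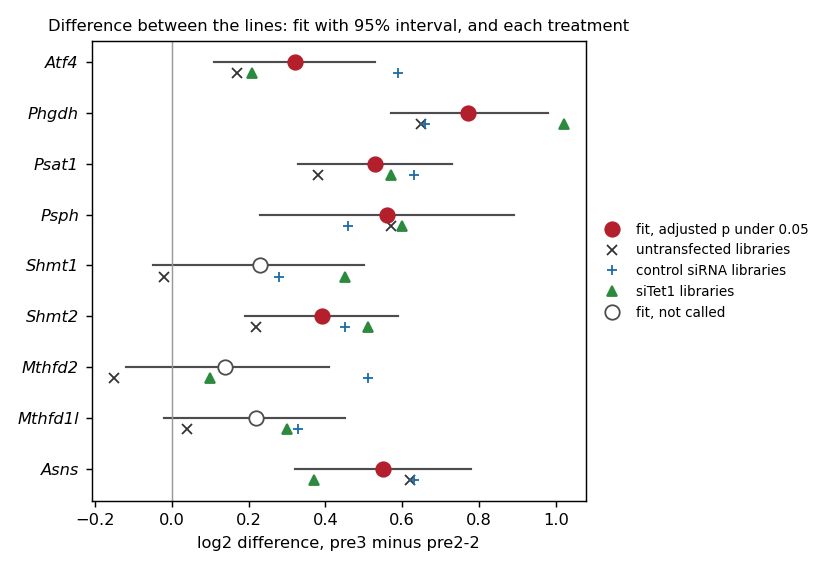
Difference between the lines, pre3 minus pre2-2, in log2 CPM (horizontal axis) for each gene; large points with bars are the fit over all 6 libraries with its 95% interval, red where called, and the small crosses, plus signs and triangles below each are the single-library differences within untransfected, control siRNA and siTet1 cells. All differences of Atf4, Phgdh, Psat1, Psph, Shmt2, Mthfd1l and Asns lie above 0, while Shmt1 and Mthfd2 are slightly below 0 in untransfected cells.

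Whether siTet1 acted differently in the lines was tested with an interaction term, taking the untransfected and control siRNA libraries of a line as its controls. For this term 0 of the 9 genes, and 0% of all genes, were called. DESeq2 and limma-voom also called 0 of the 9, and edgeR gave 270 of all genes, none of them one of the 9, an unadjusted p under 0.05. The interaction of Phgdh was 0.37 (SE 0.24) and that of Psat1 0.08 (SE 0.28). Each line had 1 siTet1 library, so the fit took the controls of a line to vary as replicates do. Yet 164 of all genes were called between control siRNA and untransfected cells. The lack of calls for the interaction therefore does not show that the lines responded alike.

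The wider pathway was read from 4 gene lists, described by counts and medians. Of 23 genes for other folate and glycine enzymes, 20 could be tested (not Aldh1l1, Amt and Ftcd). In siTet1 against untransfected cells 3 of the 20 were called lower and 0 higher, beside 1.63% and 4.92% of all genes, with a median of -0.15 beside 0.01 over all genes. Gart, an enzyme of purine synthesis that uses a folate carbon, fell by 0.56 (SE 0.12, adjusted p = 0.00569). Gcat, a mitochondrial enzyme of threonine breakdown to glycine, fell by 0.74 (adjusted p = 0.0217), as did Ggh, a hydrolase of folate polyglutamates (adjusted p = 0.0249). The 3 calls were lost with DESeq2 or without the pre2-2 siTet1 library, and those of Gcat and Ggh also without the pre2-2 untransfected library. With 1 library left out the changes ranged from -0.77 to -0.36 in Gart, -0.96 to -0.55 in Gcat and -1.05 to -0.32 in Ggh.

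Gart was also the single gene of that list called against control siRNA, where it fell by 0.49 (SE 0.13, adjusted p = 0.044), 0.434% of all genes were called lower and the list's median was -0.13. Gart was at 335, 307 and 193 CPM in pre2-2 and at 295, 293 and 234 in pre3, with both siTet1 libraries below the others. That call was lost in 7 of 15 alternatives, among them DESeq2 and the fits without the pre2-2 control siRNA, pre2-2 siTet1 or pre3 control siRNA library, and its change ranged from -0.70 to -0.29. Mthfd1, the abundant cytosolic folate enzyme at 369 to 510 CPM, was at -0.34 against untransfected cells (SE 0.11, adjusted p = 0.0624). Tdh, the first enzyme of threonine breakdown, was not called in any treatment comparison, with 0.13 against control siRNA. Gldc of the glycine cleavage system (-0.33), Mthfd2l (-0.02) and Aldh1l2 (-0.21) were not called either, at mean levels of 7.97 to 11.1, 11.2, and 4.44 to 5.17 CPM in those groups.

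Of 20 genes for serine use and related amino acid synthesis, 18 could be tested (not Sds and Sdsl). In the 3 treatment comparisons 0 were called by edgeR, DESeq2 or limma-voom. In edgeR 1 of the 18 had an unadjusted p under 0.05 in each. Of the 11048 genes tested, 1196 had one in siTet1 against control siRNA. Between control siRNA and untransfected cells 1016 did, and in siTet1 against untransfected cells 2157. The medians of the 18 were 0.12 against control siRNA, -0.12 between control siRNA and untransfected cells and -0.08 against untransfected cells. Cth, which makes cysteine from cystathionine, was at -0.12 against control siRNA and the proline enzymes Aldh18a1 and Pycr1 at -0.08 and 0.40.

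The other known targets of ATF4 and stress genes numbered 33, of which 32 were tested (not Fgf21). Against control siRNA 0 were called by edgeR, DESeq2 or limma-voom, and the median was -0.13. There 4 of the 32 had an unadjusted edgeR p under 0.05, beside 1196 of the 11048 genes tested. Against untransfected cells 2 of the 32 were called lower and 0 higher, beside 1.63% and 4.92% of all genes, with a median of -0.09. These were Slc7a3, a transporter of cationic amino acids (-0.52, adjusted p = 0.00868), and Gars, the glycine tRNA ligase (-0.38, adjusted p = 0.0349). Both calls were lost with DESeq2 and without either siTet1 library, that of Slc7a3 also without the pre2-2 untransfected library, and that of Gars without either control siRNA library.

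Stress markers that ATF4 induces were not called in a treatment comparison. Against control siRNA Trib3 was at 0.09 (adjusted p = 0.942), Sesn2 at -0.22 (adjusted p = 0.73), Ddit3 at -0.35 (adjusted p = 0.837) and Chac1 at -1.11 (SE 0.62, adjusted p = 0.548). Ddit3 and Chac1 were low, at 4.27 to 14.4 and 1.87 to 6.6 CPM, so the depth limits what could be seen of them. The cystine transporter Slc7a11 was at 0.27 (adjusted p = 0.621).

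Among 15 kinases and regulators upstream of Atf4, all tested, the interferon-inducible kinase Eif2ak2 was the single gene called in a treatment comparison. Against control siRNA 1 of the 15 was called lower, beside 0.434% of all genes. Between control siRNA and untransfected cells 1 was called higher, beside 1.38%. At an unadjusted edgeR p under 0.05, 5 of the 15 passed in siTet1 against control siRNA, beside 1196 of the 11048 genes tested. Between control siRNA and untransfected cells 1 passed, beside 1016, and in siTet1 against untransfected cells 2, beside 2157. Eif2ak2 was at 44.3, 113 and 68.8 CPM in pre2-2 and at 46.2, 65 and 38.3 in pre3, highest with control siRNA in each line. Eif2ak2 rose by 0.97 from untransfected to control siRNA cells (SE 0.19, adjusted p = 0.00369) and fell by 0.73 from control siRNA to siTet1 (SE 0.19, adjusted p = 0.0433). The rise was not called with DESeq2 or without the pre2-2 untransfected or control siRNA library, and ranged from 0.49 to 1.35 with 1 library left out. The fall was not called with DESeq2, nor when either siTet1 library or the control siRNA library of pre2-2 was left out, and the change ranged from -0.97 to -0.50 with 1 library left out. Eif2ak3, the kinase of the unfolded protein response, was at -0.44 (adjusted p = 0.426) and Eif2ak4, the sensor of amino acid shortage, at -0.06 (adjusted p = 0.94) against control siRNA. The medians of the list were -0.06, 0.03 and -0.01 in siTet1 against control siRNA, control siRNA against untransfected and siTet1 against untransfected cells.

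**Figure D4:**
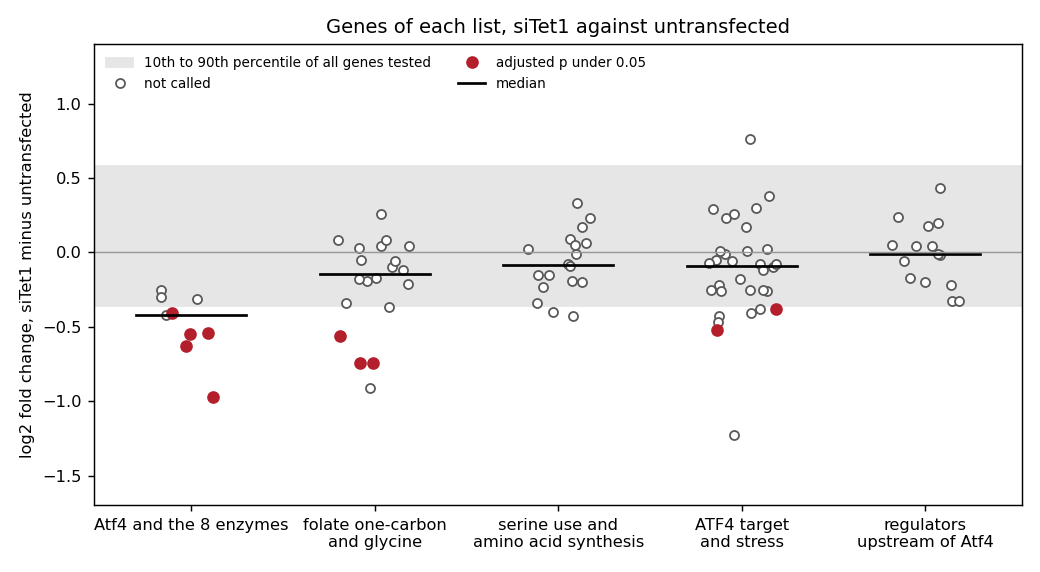
Fitted log2 change of siTet1 against untransfected cells (vertical axis) for Atf4 with the 8 enzymes and for the tested genes of the 4 lists; each point is a gene, filled red at an adjusted p under 0.05, black bars are medians, and the grey band holds the 10th to 90th percentile of all genes tested. The medians are -0.42 for the 9 genes and -0.15, -0.08, -0.09 and -0.01 for the lists from left to right.

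Between the lines, the lists were mixed in direction, beside 14.4% of all genes called higher in pre3 and 15.8% lower. Of the 20 folate and glycine genes 4 were called higher in pre3 (Tdh 0.48, Gcat 0.73, Gldc 1.34 and Mthfd2l 0.77) and 2 lower (Ggh -0.55 and Mtr -0.32), near those shares, with a median of 0.02. Of the 18 genes for serine use and related synthesis 5 were higher, among them Gpt2 (1.56), Cbs (1.32), Oat (0.73) and Aldh18a1 (0.35), and 1 lower (Sptlc1 -0.58), with a median of 0.27. Of the 32 ATF4 target and stress genes 8 were higher, among them Cebpb (1.25), Slc1a4 (0.88), Sesn2 (0.73) and Ddit4 (0.70), and 3 were lower, among them Slc7a3 (-0.95) and Trib3 (-0.66), with a median of 0.17. The 15 upstream regulators gave 3 higher (Myc 0.90, Eif2ak4 0.47 and Tsc1 0.47) and 3 lower (Mycn -1.60, Eif2ak2 -0.55 and Tsc2 -0.44), with a median of 0.06. Of the genes named here, Gcat, Gpt2, Oat, Cebpb, Slc1a4, Sesn2, Ddit4, Slc7a3 and Myc were called in all 12 alternatives, and each of the others lost its call in at least 1.

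The genes whose pattern over the 6 libraries was most like that of Psat1, by Pearson's r of log2 CPM centred within each line among 9951 genes, were Mrpl35, Nde1, Dyrk1a, Ryr1 and Pik3c3 (0.996 to 0.997). Among the other 8 genes described here the closest were Shmt2 (0.973, rank 111) and Mthfd1l (0.970, rank 133), and the least close was Psph (0.776). The pattern of Atf4 was most like that of Zbed3, Ears2, Iars, Vps25 and Lcmt2 (0.992 to 0.997), and among the 8 enzymes it was closest to Mthfd2 (0.877) and least close to Psph (0.352). With 6 points that share lines and controls such values are common: 5.61% of genes had an r over 0.9 with Psat1 and 2.41% with Atf4. They are descriptions of these libraries.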

How the data were processed

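The deposited files give, per gene symbol, an expected count (an estimate of reads, not normalized) and a fraction (the estimated share of transcripts, from which TPM was computed); the authors used RSEM 1.1.21 for both, with mm9 as the build, per the submitters' processing notes. Expected counts were rounded, since 18.7 to 21.4% of a library's were off a whole number by over 0.005. The aligner is not given in the sources used here. Library totals were 1868640 to 2582803; intervals cover the fit's error, and 3 counts (1.16 to 1.61 CPM) cover counting error only. A table of TPM for the series was not used because it repeats the fractions.

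Counts were tested with edgeR 4.0.16 (R 4.3.3): TMM factors, genes kept by filterByExpr (grouped by treatment, minimum count 10), and the quasi-likelihood test with Benjamini-Hochberg adjustment, called under 0.05. The model held line and treatment over all 6 libraries (2 residual degrees of freedom, prior 23.2). The line pairs the libraries: deviations from the treatment means correlated at 0.667 to 0.772 between libraries of a line. The fit was run on simulated counts in which 200 of 11048 genes changed 2-fold in siTet1. Against control siRNA it recovered 71.8% of these, with 4 false calls. The simulation gave all genes the same spread and held no smaller changes, so it does not show how reliable the calls here are. Alternatives were RLE factors, library totals, no filter, DESeq2 1.42.0, limma-voom (limma 3.58.1), a log2 change of at least 0.5, each library left out, no replicate block, only the 4 libraries compared, and pooled controls.

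The 9 genes and the lists were chosen with earlier results of these data known. Named besides the 9 were, per list and comparison, called genes up to the 6 with the smallest p, a fixed set of related genes, Tet1, and the 5 genes most like Psat1 and Atf4; some genes under this rule are not reported here. Promoter windows came from RefSeq on GRCm38.p6.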

Additional observations from a re-analysis of the deposited data

How the results depend on the processing

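Scaling, the filter and limma-voom changed no count of calls among the 9 genes. In siTet1 against control siRNA, where 1 gene was called, 0 were called with no replicate block, 2 (Psat1 and Shmt2) with only the 4 libraries compared and the replicate block, and 0 to 2 when 1 library was left out: 0 without the pre2-2 siTet1 or pre3 control siRNA library, 2 without either untransfected library. In siTet1 against untransfected cells, with 5 called, DESeq2 called 2, no replicate block 0, the rule of a log2 change of at least 0.5 and the fit to only the 4 libraries with the replicate block 4 each (without Phgdh), and leaving out 1 library 1 (without pre2-2 siTet1) to 8 (all but Psph, without pre3 untransfected). In control siRNA against untransfected cells, with 0 called, it gave 0 to 3: Asns without the pre2-2 untransfected library, and Mthfd2, Psat1 and Shmt2 without the pre3 one. Between the lines, with 6 called, it gave 4 to 8, and DESeq2 and the rule of a log2 change of at least 0.5 gave 4 each. Without the line as a block no gene of all 11048 was called between treatments. Over the alternatives all genes called ranged from 0 to 632, 0 to 733, 0 to 1900 and 1429 to 3631 in siTet1 against control siRNA, control siRNA against untransfected, siTet1 against untransfected and pre3 against pre2-2, where the fits reported gave 175, 164, 724 and 3335. Signs turned for some values of the 9 genes, all of them uncalled. With 1 library left out these ranged, for siTet1 against control siRNA, from -0.12 to 0.02 in Psph, -0.50 to 0.04 in Mthfd2 and -0.20 to 0.05 in Asns. For control siRNA against untransfected cells they ranged from -0.23 to 0.18 in Atf4 (0.01 with no replicate block), -0.22 to 0.18 in Shmt1 and -0.24 to 0.05 in Mthfd1l. The line difference of Mthfd2 ranged from -0.04 to 0.32. The interaction ranged from -0.14 to 0.29 in Psat1, -0.02 to 0.28 in Psph, -0.03 to 0.40 in Shmt2, -0.40 to 0.25 in Mthfd2 and -0.50 to 0.01 in Asns, and gave no value without either siTet1 library. The cause of these shifts was not tested.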
